A study of Mus musculus with 6 samples.

Results

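The cytosolic ribosomal protein genes encode the protein parts of the ribosome that translates nuclear mRNA. They were taken as every gene whose symbol starts with Rpl or Rps followed by a digit, together with Rplp0, Rplp1, Rplp2 and Rpsa. The Rps6k kinases and symbols that mark pseudogenes were left out. On the array 66 such genes had a named probe, of 20289 genes with a probe, and each was represented by its brightest probe. Of these, 62 were above background on at least 2 arrays and were tested, among 12093 genes tested in all.

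Levels were measured on Illumina mouse bead arrays in 3 kinds of CD4 T helper cell, Th9, Th1 and Th17, with 2 arrays per kind and 6 in all. In every group the cells had been transferred into mice of the C57BL/6 background that carried a tumour, and were sorted from the spleen 12 days later as CD45.1+ CD4+ cells. Th9, Th1 and Th17 cells are helper subsets named for interleukin 9, for the interferon gamma response and for interleukin 17. All 3 groups share the transfer, the tumour-bearing host, the time and the sort, and no group of untransferred cells was analysed here. How the subsets were polarised, which tumour was used and how many animals were pooled are not given in the sources used here. Within a kind the labels tell the arrays apart only by the word repeat, so a p-value reflects how far arrays of a kind differ, a spread that may be technical.

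The ribosome is built from a small subunit, which reads the mRNA, and a large subunit, which joins amino acids. A stalk of acidic proteins on the large subunit binds the elongation factors. Most ribosomal protein mRNAs carry a terminal oligopyrimidine tract, a C at the transcription start followed by an unbroken run of pyrimidines, through which mTORC1 and the La-related protein Larp1 control their translation. That control acts on translation, and the arrays read only mRNA levels. T cells raise ribosome production when they are activated, partly through Myc.

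The transcription starts of ribosomal protein genes are shown first, because the pyrimidine tract is the feature the family is known for. Each window runs from 10 bases before the annotated start to 20 bases from it, on the gene's own strand, in RefSeq's annotation of GRCm38.p6. Capitals mark the start base and the unbroken pyrimidines that follow a C there. The first pair gives examples of the tract, which most members that passed in no comparison lack at the annotated start. Rpl22l1 and Rpl36al, whose windows are not shown, are among those. The first pair, at chr4:86857348-86857377 on the minus strand and chr7:141447641-141447670 on the plus strand, carries the tract, and neither gene passed the test in any comparison:
Rps6: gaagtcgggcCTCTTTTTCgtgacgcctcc
Rplp2: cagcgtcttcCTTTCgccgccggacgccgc

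The next windows belong to the genes that passed the test in at least 1 comparison and have an entry in the promoter table. They lie at chr5:115559457-115559486, chr9:66946076-66946105, chr4:152324426-152324455, chr16:55966265-55966294 and chr9:64173377-64173406, all on the plus strand, and at chr17:46782637-46782666 on the minus strand. For Rps27l and Rpl22, which have 2 annotated starts each, the one farthest upstream is shown:
Rplp0: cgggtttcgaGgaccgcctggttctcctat
Rps27l: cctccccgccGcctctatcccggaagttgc
Rpl22: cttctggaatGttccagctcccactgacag
Rpl24: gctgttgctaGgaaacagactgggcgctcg
Rpl4: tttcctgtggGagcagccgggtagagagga
Rpl7l1: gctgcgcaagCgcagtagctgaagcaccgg

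A C exactly at the annotated start, followed by at least 4 bases that are each C or T, was found for 813 of 27025 genes of the promoter table (3.01%) and for 15 of the 69 ribosomal protein genes listed there (21.7%). Only the gene's own strand was read, and no other motif was searched. Among the tested members with an entry, 10 of 47 that passed in no comparison had the feature (21.3%), against 0 of 6 that passed. The exact base at which RefSeq starts a transcript decides this count, and the absence of these letters from a window says nothing about the gene's regulation. Within 20 bases either side of the start the same letters occurred in 79.7% of the listed members and in 53.3% of all genes. There they occurred in 38 of the 47 members that passed in no comparison (80.9%) and in 4 of the 6 that passed (66.7%).

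The facts of the arrays as a whole are brief. Of 45281 probes, 41.0 to 45.2% were above background per array, and array means ranged from 117.1 to 171.1 units. Precision is limited by having 2 arrays a kind. Of 14 T cell identity genes, 10 had a probe and all 10 were above background. Il9 was below background on all 6 arrays, with intensities of 4.1 and 3.0 in Th9 cells and 0.1 to 1.8 elsewhere. Il17a was above background on 3 arrays but at no more than 11.2 units. Ifng was dim, at 27.5 and 22.1 units in Th1 cells and at most 7.2 elsewhere. Gata3, a factor of interleukin 4 producing cells that Th9 cells also use, read 1103.9 and 1234.5 units in Th9 cells, 130.8 and 93.2 in Th1 cells and 373.1 and 386.6 in Th17 cells. Tbx21, the Th1 transcription factor, read 56.2 and 54.2 in Th1 cells and at most 9.1 elsewhere.

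Most ribosomal protein probes were among the bright ones. The mean intensity over the 6 arrays was over 1000 for 46 of the 62 tested members, against array maxima of 19706.0 to 27958.9. The highest values were those of Rplp1 (21245.6), Rps29 (21145.5), Rps2 (20539.8) and Rpl41 (20445.3). By role, 23 of 30 large subunit genes, 19 of 23 small subunit genes, 2 of 3 stalk genes and 2 of 6 paralogs or genes that only share the name were over 1000 units. These are probe intensities with no correction for probe or transcript length, so they do not rank the genes by abundance.

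A dim probe here is not a missing ribosomal protein. The probes of 10 tested members averaged under 100 units, among them those of Rpl14 (5.7), Rpl17 (6.4), Rpl6 (10.4), Rps18 (9.6) and Rpsa (4.1), which encode core proteins that every ribosome contains. The probes of Rpl14, Rpl17 and Rpsa were above background on 3 arrays, that of Rps18 on 4 and that of Rps23rg1 on 2. The other 57 tested members were above background on all 6 arrays. Rpl3l, Rpl39l, Rps20 and Rps4l were not above background on at least 2 arrays and were not tested. RefSeq lists 24 further protein-coding genes of the family for which no probe was named, among them Rpl5, Rpl11, Rps27 and Rps27a. RefSeq also lists 324 pseudogenes named for ribosomal proteins. A probe may bind transcripts of near-identical copies, so each member's value is uncertain in that respect.

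Levels below are log2 intensities after background correction with an offset of 50 and quantile normalization. Differences are log2 fold changes ± standard error with n = 2 arrays per kind. Passing means an adjusted p below 0.05 in limma, with Benjamini-Hochberg adjustment over all 12093 genes. The offset shrinks the change of dim genes.

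After quantile normalization, ribosomal protein mRNAs as a group were at nearly the same level in Th9, Th1 and Th17 cells. That step gives every array the same distribution, so it can lessen a shift shared by many bright genes. Of the 62 tested members, 55 passed in no comparison. The other 7 were 11.3% of the members, where 26.1% of all genes tested passed in at least 1 comparison. In Th9 against Th1 cells 3 of 62 passed (4.84%), 1 higher and 2 lower, where 10.6% of all genes tested passed, 5.81% higher and 4.82% lower. In Th9 against Th17 cells 5 of 62 passed (8.06%), 4 higher and 1 lower, where 19.0% of all genes passed, 10% higher and 8.94% lower. In Th17 against Th1 cells 3 of 62 passed (4.84%), all 3 lower, where 14.9% of all genes passed, 7.48% higher and 7.39% lower. The members' share was below that of all genes in each comparison, and the difference in shares was not tested.

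The median log2 fold change of the members was -0.06 in Th9 against Th1 cells, with quartiles of -0.13 and 0.01 and a range from -0.54 (Rpl29) to 0.52 (Rps27l). It was -0.003 in Th9 against Th17 cells, with a range from -0.37 (Rpl24) to 0.79 (Rps27l, with Rplp0 also at 0.79). It was -0.07 in Th17 against Th1 cells, with a range from -0.64 (Rplp0) to 0.17 (Rpl9). The medians of all genes were 0.01, 0.01 and 0.004. More members lay below 0 than above it in Th9 against Th1 cells (46 against 16) and in Th17 against Th1 cells (48 against 14). In Th9 against Th17 cells the counts were 33 against 29. Arrays were also scaled to their median in place of quantile normalization. The counts then were 37 against 25 in Th9 against Th1 cells and 52 against 10 in Th9 against Th17 cells. In Th17 against Th1 cells they turned to 15 against 47. That scaling moved the median of all genes to 0.14, -0.02 and 0.15, and relative to it the members' medians were -0.16, -0.14 and -0.02.

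**Figure D1:**
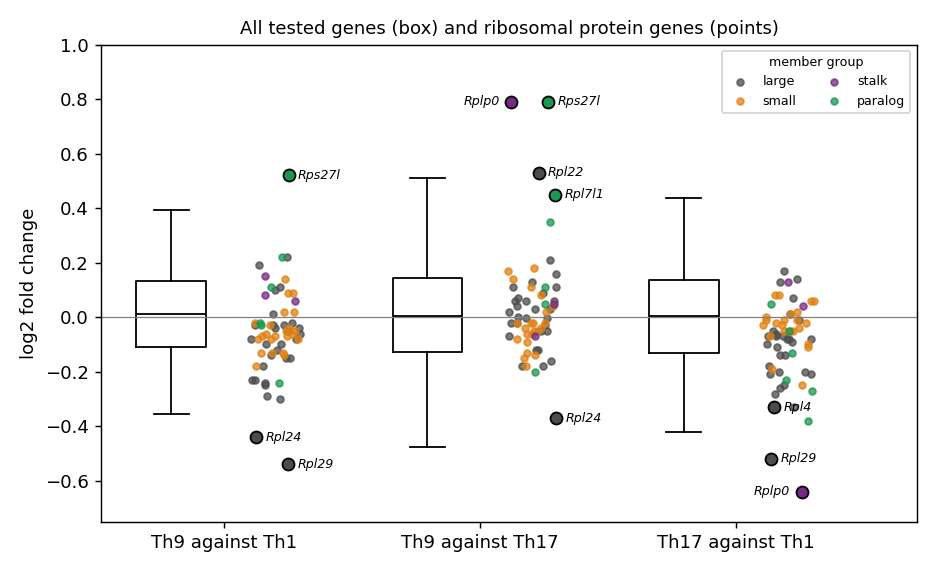
Log2 fold change (vertical axis) in the 3 comparisons; boxes give the quartiles of all 12093 genes with whiskers at the 5th and 95th percentiles, and points are the 62 ribosomal protein genes by group, with outlined and named points for those that passed the test. Most points lie inside the range of the whiskers near 0, with Rps27l and Rplp0 highest at 0.79 in Th9 against Th17 cells and Rplp0 lowest at -0.64 in Th17 against Th1 cells.

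The intervals show how small a difference the fit leaves room for after quantile normalization. They cannot bound a shift shared by many bright genes, which that step can lessen. The 95% interval of the log2 fold change lay wholly within 0.5 of 0 for 56 of 62 members in Th9 against Th1 cells (90.3%), for 56 in Th9 against Th17 cells (90.3%) and for 55 in Th17 against Th1 cells (88.7%). Among all genes the shares were 80.0, 72.8 and 75.7%. The offset narrows the intervals of dim genes. For the 46 members over 1000 units the shares were 91.3, 95.7 and 93.5%. The spread between arrays of a kind had a median SD of 0.095 for the members, 0.085 for the members over 1000 units and 0.104 for all genes. In data simulated with the spread of the Th9 against Th1 fit, a planted log2 change of 0.5 was called for 78.0% of genes and one of 0.3 for 18.0%. There 11893 of 12093 genes were unchanged, whereas 1286 passed in the data. More changed genes loosen the cutoff behind an adjusted p, so the data may miss fewer changes of about 0.3 than the simulation did.

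**Figure D2:**
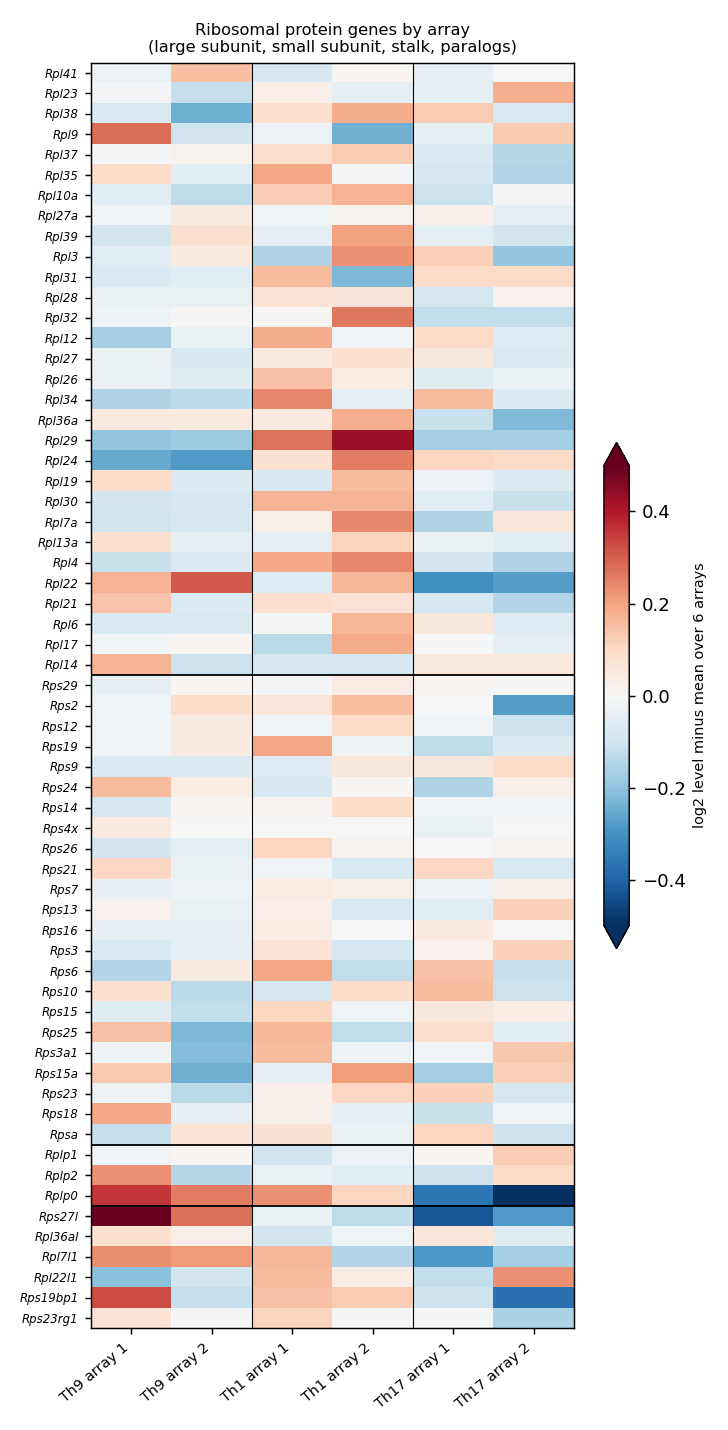
Log2 level of each of the 62 tested ribosomal protein genes (rows, by group and then by falling intensity) on each of the 6 arrays (columns), minus the gene's mean over the 6 arrays; the colour scale ends at 0.5 in either direction. Most rows stay pale, and the darker rows include those of Rpl29, Rpl24, Rpl22, Rplp0, Rps27l and Rpl7l1. Rps19bp1, which passed in no comparison, also has a darker row, and its Th9 arrays differ (7.01 and 6.57).

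By the brightest probe of each gene, the small subunit was the most even group. None of its 23 tested genes passed in any of the 3 comparisons, where 26.1% of all genes passed in at least 1. All 23 intervals lay within 0.5 of 0 in each. The offset holds the dim probes of Rpsa (4.1 units), Rps18 (9.6), Rps23 (29.4) and Rps15a (46.8) near 0, so their intervals say little. Dimmer probes of Rps24 and Rps13, given below, did pass. At an unadjusted p below 0.05 the counts were 0, 0 and 1. The differences ran from -0.18 (Rps3a1) to 0.14 (Rps24) in Th9 against Th1 cells, from -0.18 (Rps3a1) to 0.18 (Rps2) in Th9 against Th17 cells and from -0.25 (Rps2) to 0.08 (Rps9) in Th17 against Th1 cells.

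Rps6, the small subunit protein that S6 kinase phosphorylates downstream of mTORC1, read 12.99 and 13.18 in Th9 cells, 13.33 and 13.01 in Th1 cells and 13.28 and 13.02 in Th17 cells. The 3 groups overlapped. Its difference was -0.08 ± 0.13 between Th9 and Th1 cells, with an interval from -0.35 to 0.18.

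Rps4x, whose gene lies on the X chromosome, hardly varied. It read 13.81 and 13.76 in Th9 cells, 13.76 and 13.76 in Th1 cells and 13.73 and 13.76 in Th17 cells. Rps29, a zinc-binding protein of the small subunit, read 14.33 to 14.42 over all 6 arrays. The groups of either gene differed by no more than 0.04 on the log2 scale. Rpsa, which is also known as a laminin receptor, was at background level, from 5.88 to 6.10 over the arrays, and did not pass (differences of -0.05, -0.02 and -0.03).

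In the large subunit 4 of 30 genes passed in at least 1 comparison (13.3%, where 26.1% of all genes did), and they did not follow a common pattern. Rpl29 was high in Th1 cells. It read 12.57 and 12.73 in Th1 cells, 12.10 and 12.12 in Th9 cells and 12.13 and 12.13 in Th17 cells. Both Th1 arrays lay above the other 4. Rpl29, a protein on the surface of the large subunit, was lower in Th9 than in Th1 cells by a log2 fold change of -0.54 ± 0.11 (adjusted p = 0.00186) and lower in Th17 than in Th1 cells by -0.52 ± 0.11 (adjusted p = 0.00225). The difference between Th9 and Th17 cells was -0.02, with an interval from -0.25 to 0.20. These 2 differences share the Th1 arrays. With median scaling of the arrays the Th17 difference was -0.29 and did not pass (adjusted p = 0.13). A dimmer probe of Rpl29, tested among all probes, gave -0.35 and -0.19 and passed in neither (adjusted p = 0.0556 and 0.311).

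Rpl24, a protein at the face where the subunits meet, was low in Th9 cells. It read 11.73 and 11.70 in Th9 cells, 12.06 and 12.24 in Th1 cells and 12.09 and 12.08 in Th17 cells. Neither Th9 array overlapped the other 4. It was lower in Th9 than in Th1 cells by -0.44 ± 0.11 (adjusted p = 0.0122) and lower in Th9 than in Th17 cells by -0.37 ± 0.11 (adjusted p = 0.0223), and these comparisons share the Th9 arrays. The call against Th1 cells ended without either Th9 array (adjusted p = 0.0736 and 0.0828) and without Th1 array 2 (0.127). The call against Th17 cells ended without any 1 of the 4 arrays it compares (0.0927 to 0.117).

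Rpl22, an RNA-binding protein of the large subunit that mouse αβ T cells need to develop, was low in Th17 cells. It read 8.83 and 8.86 in Th17 cells, 9.31 and 9.44 in Th9 cells and 9.07 and 9.30 in Th1 cells. The Th17 arrays lay below the other 4, while the Th9 arrays lay just above the Th1 arrays. Rpl22 was higher in Th9 than in Th17 cells by 0.53 ± 0.11 (adjusted p = 0.00217), a 1.44-fold difference. Against Th1 cells the Th17 value was -0.33 with an adjusted p of 0.0574, which did not pass.

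Rpl22l1, the paralog whose expression Rpl22 is known to repress in mice, did not pass in any comparison. It read 7.71 and 7.82 in Th9 cells, 8.07 and 7.95 in Th1 cells and 7.79 and 8.14 in Th17 cells. Its difference between Th9 and Th17 cells was -0.20 ± 0.12, with an interval from -0.45 to 0.06. The groups overlapped.

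Rpl4, which lines the tunnel through which the new protein leaves, read 10.22 and 10.27 in Th1 cells, 9.92 and 9.96 in Th9 cells and 9.94 and 9.88 in Th17 cells. The Th1 arrays were above the other 4. It was lower in Th17 than in Th1 cells by -0.33 ± 0.11 (adjusted p = 0.0399). In Th9 against Th1 cells the value was -0.30 and the adjusted p 0.079. The Th17 call was the least firm of the family: it ended when any 1 of the 6 arrays was left out (adjusted p from 0.051 to 0.217) and its value was 0.0039 under scaling of the arrays by their median.

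The other 26 large subunit genes passed in no comparison. Among the brightest, Rpl41 differed by 0.10 between Th9 and Th1, by 0.09 between Th9 and Th17 and by 0.01 between Th17 and Th1 cells. In the same order Rpl23 differed by -0.05, -0.12 and 0.07. Rpl3, which sits near the centre where peptide bonds form, differed by -0.04, 0.04 and -0.08. The large subunit's median difference was -0.09, 0.01 and -0.09.

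The probes of the stalk genes differed from one another. Rplp0, the protein that anchors the stalk to the large subunit, was low in Th17 cells. It read 8.45 and 8.22 in Th17 cells, 9.17 and 9.07 in Th9 cells and 9.04 and 8.92 in Th1 cells. Both Th17 arrays lay below the other 4, and the Th9 and Th1 arrays did not overlap but differed by only 0.15 ± 0.11 (adjusted p = 0.526). Rplp0 was higher in Th9 than in Th17 cells by 0.79 ± 0.11 (adjusted p = 3.45e-05), a 1.73-fold difference. It was lower in Th17 than in Th1 cells by -0.64 ± 0.11 (adjusted p = 0.000493). Both comparisons share the Th17 arrays.

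A dimmer Rplp0 probe was also lowest in Th17 cells, although on it Th1 cells were above Th9 cells. It read 6.71 and 6.70 in Th17 cells, 7.12 and 7.12 in Th9 cells and 7.14 and 7.32 in Th1 cells. Tested among all probes, it gave 0.42 ± 0.11 in Th9 against Th17 cells (adjusted p = 0.0118) and -0.53 ± 0.11 in Th17 against Th1 cells (adjusted p = 0.00255). When arrays were scaled by median instead, the used probe gave -0.30 in Th17 against Th1 cells and did not pass (adjusted p = 0.183).

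The probes of Rplp1 and Rplp2, which pair with each other and hang from Rplp0, did not show its difference. They averaged 21245.6 and 11619.9 units, where the used Rplp0 probe averaged 397.0. Whether probes of such unlike brightness report their genes equally well was not tested. Rplp1 read 14.34 and 14.37 in Th9 cells, 14.26 and 14.33 in Th1 cells and 14.37 and 14.48 in Th17 cells, with a difference of -0.07 ± 0.11 between Th9 and Th17 cells. Rplp2 read 13.73 and 13.36 in Th9 cells, 13.47 and 13.45 in Th1 cells and 13.40 and 13.60 in Th17 cells, with a difference of 0.05 ± 0.13. Neither passed, and the groups of Rplp2 overlapped.

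Rps27l had the largest increase of the 62 members in Th9 over Th1 cells and, with Rplp0, in Th9 over Th17 cells. It encodes a close paralog of the small subunit protein Rps27 and is known as a gene that p53 induces. It read 13.42 and 13.10 in Th9 cells, 12.79 and 12.70 in Th1 cells and 12.40 and 12.54 in Th17 cells. The groups did not overlap and stood in the order Th9, Th1, Th17. It was higher in Th9 than in Th1 cells by 0.52 ± 0.12 (adjusted p = 0.00688), a 1.43-fold difference, and higher in Th9 than in Th17 cells by 0.79 ± 0.12 (adjusted p = 5.85e-05). The neighbouring Th1 and Th17 levels did not pass a test of their difference (-0.27, adjusted p = 0.147). The call against Th1 cells ended without Th9 array 1 (0.37, adjusted p = 0.158) and without Th1 array 2 (0.47, adjusted p = 0.058). No probe was named for Rps27 itself, so the pair could not be compared.

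Rpl7l1, a paralog of the large subunit protein Rpl7, read 8.76 and 8.74 in Th9 cells, 8.69 and 8.38 in Th1 cells and 8.24 and 8.36 in Th17 cells. The Th1 arrays spanned most of the distance between the others. It was higher in Th9 than in Th17 cells by 0.45 ± 0.12 (adjusted p = 0.0106). The call ended without either Th9 array (adjusted p = 0.0788 and 0.0518) and without Th17 array 1 (0.119).

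The other tested genes of this group did not pass. Rpl36al, a retained copy of Rpl36a, differed by 0.11 between Th9 and Th1 cells and by 0.05 in each of the other comparisons. Rps19bp1, which encodes a protein that binds Rps19 and is no ribosomal protein itself, was at 0.35 in Th9 against Th17 cells (adjusted p = 0.0785). Rps23rg1 was at background level.

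**Figure D3:**
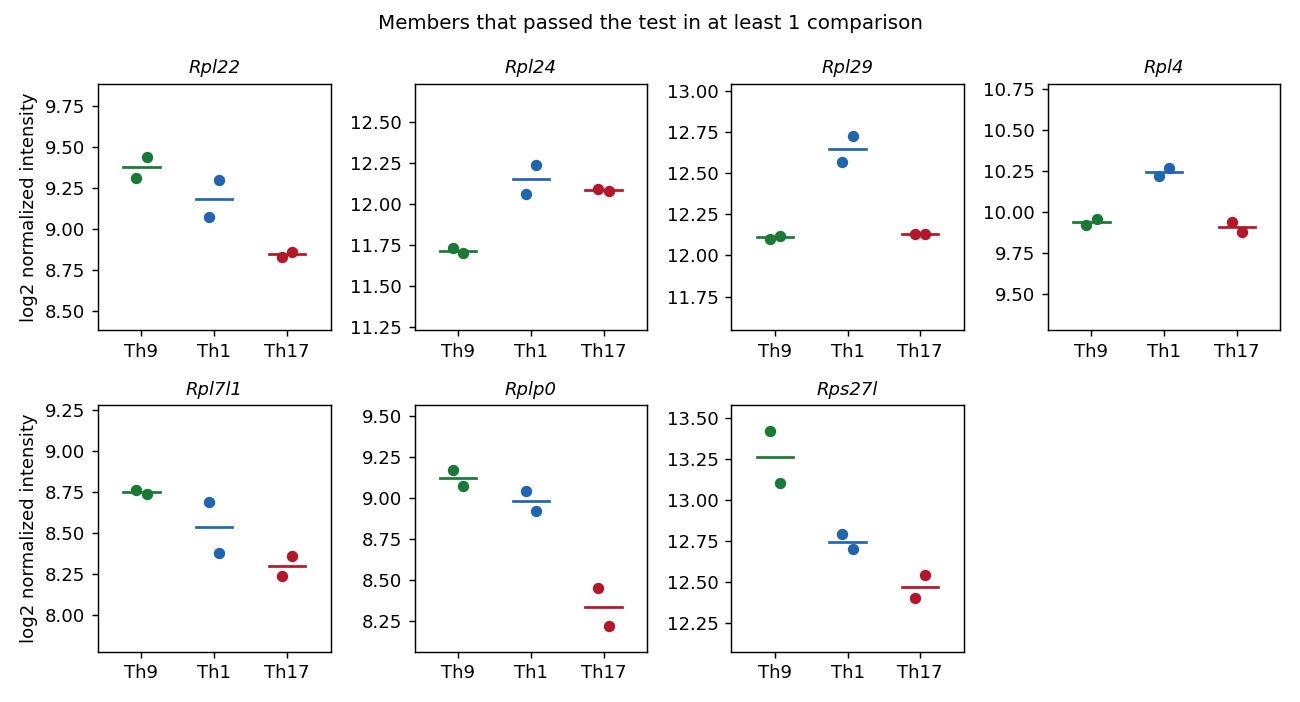
Log2 normalized intensity (vertical axis, each panel spanning 1.5 units around the gene's mean) of the 7 ribosomal protein genes that passed in at least 1 comparison; points are the 2 arrays of each kind and bars their mean. Rplp0 and Rpl22 are lowest in Th17 cells, Rpl24 lowest in Th9 cells, Rpl29 and Rpl4 highest in Th1 cells and Rps27l highest in Th9 cells.

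Further probes gave another view of 20 member genes, through 27 probes that were above background but were not the brightest. In Th9 against Th1 cells 0 of the 27 passed by limma, where 7.85% of all probes did, and 5 had an unadjusted p below 0.05. In Th9 against Th17 cells 2 of 27 passed, those of Rplp0 and Rps13, where 14.9% of all probes did. In Th17 against Th1 cells 2 passed, those of Rplp0 and Rps24, where 11.7% did. The Rps24 probe read 8.75 and 8.78 in Th17 cells and 9.34 and 9.55 in Th1 cells, a difference of -0.68 (adjusted p = 0.000358), while the brightest Rps24 probe gave -0.03. The Rps13 probe, at a mean of 86.0 units, gave -0.40 in Th9 against Th17 cells where the bright probe gave -0.04. No gene had 2 probes that passed in opposite directions.

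On the deposited scale, before any normalization here, the 62 member probes summed to 7.54 and 7.17% of an array's total intensity in Th9 cells, 8.49 and 8.69% in Th1 cells and 7.71 and 7.56% in Th17 cells. Both Th1 arrays were above the other 4. Saturation of bright beads and the loss of values below 0 can shift such a share, and its part was not tested. After quantile normalization the arrays' median deviations of the members were -0.02 and -0.04 in Th9 cells, 0.04 and 0.04 in Th1 cells and -0.03 and -0.06 in Th17 cells.

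The rest of the translation machinery was read from 6 lists of genes. Of the initiation factors 0 of 23 passed in each comparison by limma at the same threshold, and 5, 5 and 4 had an unadjusted p below 0.05. Their differences ran from -0.30 to 0.31 over the 3 comparisons. Under scaling by the median 6, 0 and 8 of the initiation factors were higher and 0 lower. Elongation factors and other genes with pyrimidine tracts had 1 of 20 lower in Th9 than in Th1 cells, 2 higher and 2 lower in Th9 than in Th17 cells and 1 lower in Th17 than in Th1 cells. Median scaling gave counts of 1 higher and 0 lower, 0 higher and 3 lower, and 4 higher and 0 lower.

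Of that list, Eef1g, a subunit of the complex that recharges elongation factor 1A, read 13.26 and 13.06 in Th9 cells and 12.64 and 12.79 in Th17 cells, a difference of 0.45 (adjusted p = 0.00803). Eif3k, a small subunit of initiation factor 3, was lower in Th9 than in Th1 cells by -0.58 and than in Th17 cells by -0.41. Eef1e1, a scaffold protein of tRNA synthetases, was higher in Th9 than in Th17 cells by 0.39, and Tpt1, an abundant protein whose mRNA carries a pyrimidine tract, was lower by -0.32. Eef1e1 was also lower in Th17 than in Th1 cells by -0.41. Eef1a1, the factor that brings tRNA to the ribosome, gave -0.04, -0.22 and 0.19 and did not pass, and Eef2, which moves the ribosome along the mRNA, gave -0.04, -0.11 and 0.06 and did not pass.

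Ribosome biogenesis factors were lower in Th17 cells where they passed, a direction that was lost when arrays were scaled by their median. In Th9 against Th17 cells 9 of 54 were higher and 0 lower (16.7%, where 10% of all genes were higher and 19.0% passed either way). In Th17 against Th1 cells 0 were higher and 9 lower (16.7%, where 7.39% of all genes were lower and 14.9% passed either way). In Th9 against Th1 cells 1 was lower. The median differences were 0.10, -0.15 and -0.02, and the first 2 comparisons share the Th17 arrays. Under scaling by the median, 1 was higher in Th9 than in Th17 cells and 2 were higher and 0 lower in Th17 than in Th1 cells, with list medians of 0.06 and 0.08 beside the shifted medians of all genes of -0.02 and 0.15.

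Among them, Nop56, a core protein of the particles that methylate ribosomal RNA, read 8.61 and 8.70 in Th9 cells, 8.61 and 8.79 in Th1 cells and 8.23 and 8.15 in Th17 cells. It gave 0.47 in Th9 against Th17 cells and -0.51 in Th17 against Th1 cells (adjusted p = 0.00495 and 0.00324). Noc4l, a small subunit assembly factor, gave 0.48 and -0.44. Pno1, another factor of small subunit assembly, gave 0.55 in Th9 against Th17 cells, and Heatr1, which is needed for ribosomal RNA transcription and processing, gave 0.47. Mrto4, an assembly factor related to Rplp0, gave -0.53 in Th17 against Th1 cells, and the kinase Riok1 gave -0.51. Lyar, a nucleolar protein, was lower in Th9 than in Th1 cells by -0.45. Npm1 and Ncl, the abundant nucleolar proteins nucleophosmin and nucleolin, did not pass in any comparison, with differences between -0.14 and 0.13.

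Mitochondrial ribosomal proteins, which belong to a separate ribosome, had 8 of 72 higher and 2 lower in Th9 than in Th17 cells (11.1% higher, near the 10% of all genes) and 1 higher and 13 lower in Th17 than in Th1 cells (18.1% lower, where 7.39% of all genes were lower). In Th9 against Th1 cells 2 were higher and 2 lower. Under scaling by the median the Th17 against Th1 counts were 7 higher and 0 lower, with a list median of 0.13. Of all 12093 genes 2488 were then higher and 245 lower, with a median of 0.15. Mrps6, a small subunit member, read 9.31 and 9.32 in Th9 cells, 8.93 and 8.99 in Th1 cells and 8.27 and 8.21 in Th17 cells. The groups did not overlap, and it passed in all 3 comparisons (0.36, 1.08 and -0.72). Mrps5 went the other way and was higher in Th17 than in Th1 cells by 0.56. Mrps2 was higher in Th9 cells than in Th1 cells (0.50) and Th17 cells (0.56), and Mrpl37 was lowest in Th17 cells, at 0.56 in Th9 against Th17 and -0.48 in Th17 against Th1 cells. Mrpl2 and Mrps21 were lower in Th9 than in Th1 cells by -0.40 and -0.37. Mrpl23 and Mrps10 were lower in Th17 than in Th1 cells by -0.52 and -0.49.

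RNA polymerases I and III and their factors, which make ribosomal RNA, tRNA and 5S RNA, had 1 of 25 higher and 2 lower in Th9 than in Th1 cells, 0 passing in Th9 against Th17 cells by limma (6 at an unadjusted p below 0.05) and 3 lower in Th17 than in Th1 cells. Under scaling by the median the counts against Th1 cells turned to 3 higher and 0 lower for Th9 and to 5 higher and 1 lower for Th17 cells. Polr3k, a polymerase III subunit, was highest in Th1 cells, at 8.77 and 8.53, against 7.95 and 7.80 in Th9 cells and 7.72 and 7.33 in Th17 cells. It gave -0.77 in Th9 and -1.12 in Th17 against Th1 cells. Polr3b, a large catalytic subunit of polymerase III, gave -0.64 and -0.46. Gtf3c1, a subunit of the factor that recruits polymerase III, was higher in Th9 than in Th1 cells by 0.46, and Taf1d, a polymerase I factor, was lower in Th17 than in Th1 cells by -0.45.

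Regulators of ribosome output had 2 of 25 lower in Th9 than in Th1 cells, 2 higher and 5 lower in Th9 than in Th17 cells, and 6 higher and 0 lower in Th17 than in Th1 cells (24.0% higher, where 7.48% of all genes were higher). The named ones that were higher in Th17 cells are known as restraints on mTORC1 or Myc. Under scaling by the median the last counts were 9 higher and 0 lower, while those of Th9 against Th1 cells turned to 4 higher and 1 lower. Sesn1, a sestrin that restrains mTORC1, read 9.90 and 9.82 in Th17 cells, 9.35 and 9.16 in Th1 cells and 8.52 and 8.42 in Th9 cells. The groups did not overlap, and it passed in all 3 comparisons (-0.79, -1.39 and 0.60). Mxd1, which opposes Myc, gave -0.88 in Th9 against Th17 and 0.56 in Th17 against Th1 cells. Ddit4, an mTORC1 inhibitor, gave 0.55 in Th17 against Th1 cells, and Mxi1, a relative of Mxd1, gave 0.44.

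Other regulators went differently or did not pass. Sesn2, another sestrin, was higher in Th9 than in Th17 cells by 0.55, and Tsc2, part of the complex that restrains mTORC1, by 0.41. Myc read 6.67 and 6.42 in Th9 cells, 6.88 and 7.04 in Th1 cells and 6.88 and 6.63 in Th17 cells, and was lower in Th9 than in Th1 cells by -0.42 (adjusted p = 0.0347). Mtor, Larp1 and Eif4ebp1, an mTORC1 target that holds back initiation, did not pass in any comparison, with differences from -0.02 to 0.004 for Mtor, from -0.14 to about 0 for Larp1 and from -0.03 to 0.05 for Eif4ebp1.

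**Figure D4:**
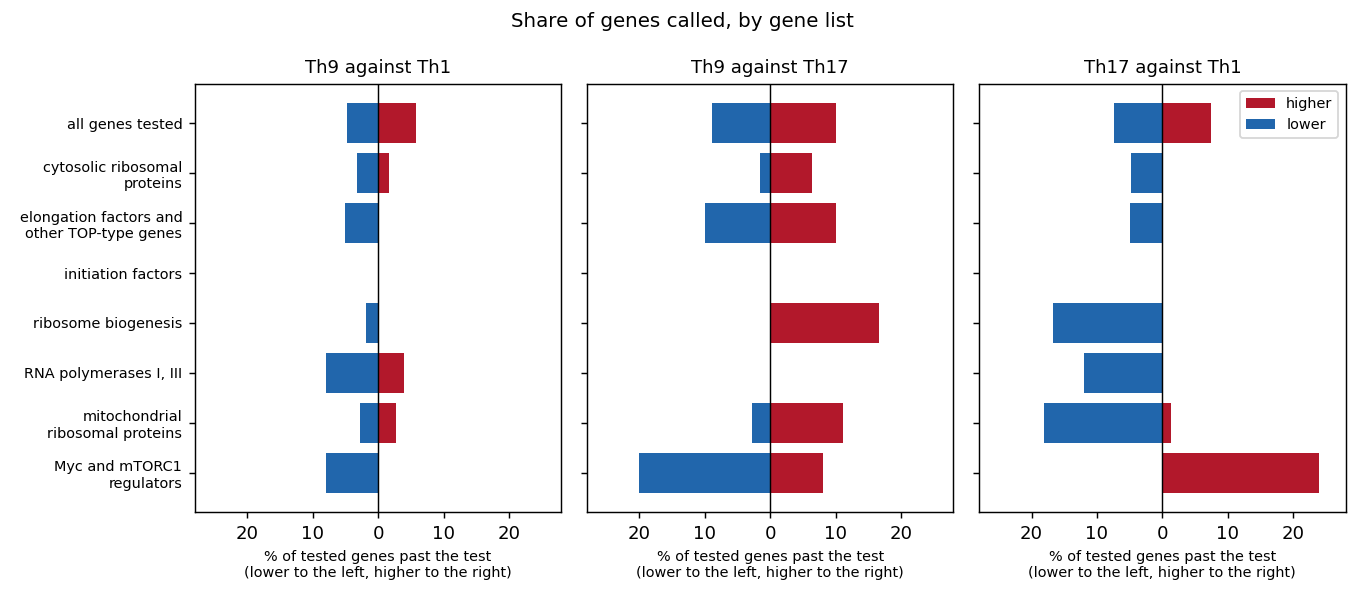
Share of the tested genes of each list that passed the test in each comparison, with lower genes as bars to the left and higher genes to the right of 0 (horizontal axis, percent). The cytosolic ribosomal proteins have shorter bars in total than all genes, while ribosome biogenesis and mitochondrial ribosomal protein bars point to lower levels in Th17 cells, which scaling by the median turned for Th17 against Th1.

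Markers of other cells varied between the same arrays. Sums over a list are of deposited intensities, not scaled between arrays. Array totals ran from 5304070 units (Th1 array 2) to 7749701 (Th17 array 1), so part of a difference in sums can come from the totals. The B cell and plasma cell list had 10 of 17 entries above background, with Pax5, Cr2 and Blnk below background on all arrays. Its summed intensity was 3598 and 4358 in Th9 cells, 2837 and 2588 in Th1 cells and 1419 and 1319 in Th17 cells. In Th9 against Th17 cells 4 were higher and 1 lower, led by Igkc (3.59) and by Cd74 and Iglv1 (2.80 each). The lower one was Ighm (-0.57). It read 10.01 and 10.04 in Th17 cells, 9.82 and 10.12 in Th1 cells and 9.48 and 9.43 in Th9 cells. In Th17 against Th1 cells 6 of the list were lower. T cell identity genes summed to 35266 and 33550 units in Th17 cells. Their sums were 21932 and 23829 in Th9 cells and 25562 and 21240 in Th1 cells. Rplp0 and Rpl22 were lowest on the arrays where the T cell sum was highest and the B cell sum lowest, although Ighm was not lowest there.

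Erythroid and platelet markers summed to 661 and 697 units in Th9 cells, 54 and 57 in Th1 cells and 75 and 149 in Th17 cells, led by Hba-a1, the alpha globin gene (3.0 in Th9 against Th1 cells). Hbb-b2 and Alas2 of that list were below background on all arrays. The monocyte, macrophage and dendritic cell list lay between 945 and 1408 units on all arrays, with Itgam, Itgax, Cd14, Fcgr3 and Clec9a below background on all. Granulocyte markers summed to 87 and 116 units in Th9 cells and to 16 to 28 elsewhere, with Chil3 at 1.04 in Th9 against Th1 cells. Only 3 of the 10 granulocyte entries were above background on at least 2 arrays. S100a8, S100a9, Ngp, Retnlg and Mcpt8 were below background on all arrays. CD8 T cell and NK cell markers summed to 725 and 561 units in Th17 cells and to 1054 to 1267 elsewhere. Cd8a, Ncr1 and Klrc1 of that list were below background on all arrays. Only 3 of its 7 entries were above background on at least 2 arrays, and Cd8b1 alone averaged 980.0 units. Another probe of Cd8b1, given below for a fit without Th1 array 2, did not show the lower level in Th17 cells. The part of such cells in the differences of Rplp0, Rpl22, Rpl24, Rpl29, Rpl4, Rpl7l1 and Rps27l was not tested. In sorted bulk cells, fewer cells of a type and less RNA per cell cannot be told apart.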

How the data were processed

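The deposited value table holds one intensity per probe and array on a linear scale, read as such from values that fall below 0. The authors' background and scaling steps for these intensities are not given in the sources used here. A further deposited table was not used, because its 12 columns match no sample label. Intensities were corrected by normexp with an offset of 50, quantile normalized and put on the log2 scale. A probe counted as above background when its deposited intensity was over 1.645 times the RMS of that array's negative values, and 22460 probes that did so on at least 2 arrays were kept. Probes were named by gene identifier (28620), accession (2637), symbol (2128) or synonym (2343), 56 kept the given symbol and 9497 had no gene. The brightest probe stood for a gene. One limma 3.58.1 model in R 4.3.3 over 6 arrays gave 3 comparisons (3 residual and 16 prior degrees of freedom), adjusted by Benjamini-Hochberg in each.

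Members and lists were chosen with earlier results of these data known, and the limits of 1000 units and of 0.5 for intervals after the values were seen. Named were all members that passed, stalk and paralog genes, and up to 4 passing genes of each other list with the largest change. In simulated data genes changed by 1 or 2 were called in 100% of cases, with 0.059 to 0.118% of unchanged genes called. Alternatives varied the normalization, the background step, the filter, the choice of probe, the prior and which arrays entered.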

Additional observations from a re-analysis of the deposited data

How the results depend on the processing

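Each of the 11 calls of a ribosomal protein gene was refitted under 16 other settings, and 134 of the 176 results kept direction and threshold, 41 lost the threshold and 1 turned in sign. All 11 kept theirs with cyclic loess, with an intensity trend and robust prior, with no filter and with only probes above background on all arrays. The other named genes had 86 calls, of which 29 lost the threshold with arrays scaled to their median. At an offset of 16 the threshold was lost by 37 of these, without background correction by 65 and with cyclic loess by 1. Without background correction (values under 1 set to 1) 0 ribosomal protein genes passed in any comparison, and of all genes 236 passed between Th9 and Th1, 674 between Th9 and Th17 and 314 between Th17 and Th1 cells; their log2 fold changes kept their sign, and the cause was not tested. At an offset of 16 the ribosomal protein counts were 0 higher and 0 lower in Th9 against Th1 cells, 0 lower in Th9 against Th17 cells and 2 lower in Th17 against Th1 cells, with 725 and 1109 of all genes in the first and last. With the intensity trend 4 were lower in Th9 against Th1 and 8 in Th17 against Th1 cells.

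With arrays scaled to their median, 3 were higher and 1 lower in Th9 against Th1 cells and 0 lower in Th17 against Th1 cells, where 2733 of all genes passed. The members' medians were then -0.03, -0.16 and 0.13, Rpl4 turned to 0.0039 in Th17 against Th1 cells, and of the genes that passed 89.2, 43.1 and 91.0% were higher in place of 54.7, 52.9 and 50.3%. With cyclic loess the medians of the Th9 comparisons were -0.09 and -0.02.

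Leaving out 1 array at a time gave 741 to 1142, 1433 to 2550 and 1002 to 1699 genes over all, medians of -0.08 to -0.05, -0.01 to 0.02 and -0.10 to -0.06, 0 to 1, 3 to 4 and 0 to 0 members higher, and 1 to 2, 0 to 1 and 2 to 4 lower, and the lone array of its kind was assumed to vary like the others. Without Th1 array 2, another probe of Cd8b1 became the brightest and gave -0.07 in Th9 against Th17 and 0.35 in Th17 against Th1 cells, where leaving out Th17 array 1 gave 1.07 and -1.21. A fit with the word repeat as a replicate block, added after seeing the data, left 2 residual degrees of freedom and gave 1255, 2243 and 1764 genes over all, with 1, 5 and 0 members higher and 2, 1 and 4 lower; no label pairs the arrays, and the repeats' deviations correlated at -0.021 to 0.014 between kinds. The count of arrays and probes near background limit what small changes can be seen.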

Other observations

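Probes named for ribosomal protein pseudogenes were left out of the family by its rule. There were 34 such probes for 33 symbols, and 27 were above background on at least 2 arrays. In Th9 against Th1 cells 3 of the 27 passed among all probes, of which 7.85% passed. All 3 were lower in Th9 cells, those of Rps19-ps7 (-0.44), Rplp0-ps1 (-0.43) and Rps12-ps24 (-0.41). A brighter probe of Rps12-ps24 gave -0.23 and did not pass by limma (adjusted p = 0.318). In Th9 against Th17 cells 0 passed by limma, where 14.9% of all probes did, with 3 at an unadjusted p below 0.05. In Th17 against Th1 cells 1 passed, that of Rps19-ps7 (-0.52), where 11.7% of all probes did. The Rps19-ps7 probe read 7.46 and 7.62 in Th1 cells against 7.11 and 7.08 in Th9 cells and 7.07 and 6.95 in Th17 cells. The Rplp0-ps1 probe read 8.66 and 8.37 in Th9 cells, 8.89 and 9.01 in Th1 cells and 8.76 and 8.51 in Th17 cells, with a difference of -0.31 in Th17 against Th1 cells (adjusted p = 0.129) and of -0.12 in Th9 against Th17 cells (adjusted p = 0.638). Some of these probes were bright: that of Rpsa-ps1 averaged 13729.6 units, where the probe named for Rpsa averaged 4.1.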
